A study of Mus musculus with 31 samples.

Results

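Cancer cells sorted from pleural tumours were compared with cancer cells of the same line sorted from peritoneal tumours, to ask how transcript levels in the tumour cells differed between 2 body cavities that are both lined by mesothelium. The comparison used 10 of the 31 RNA-seq libraries of the series: 5 from pleural and 5 from peritoneal tumours, each named for a different mouse, chosen by their labelled site. All cells were AB1-mCherry, a murine mesothelioma line that carries a red fluorescent protein and was enriched for its brightest cells before use. The hosts were female BALB/c mice of 12 weeks that received no treatment, tumours were taken on day 10 after inoculation, and the cells were sorted as CD45- mCherry+, which leaves out leukocytes. All results rest on this 1 line, and both groups share the fluorescent transgene. A further set of 5 sorted libraries from subcutaneous tumours (same line, strain, sex, age and day, also untreated) shared the estimate of spread and is given as a description, as are 6 pleural and 5 peritoneal whole tumours.

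Mesothelioma arises from the mesothelium, the cell layer that lines the pleural cavity around the lungs and the peritoneal cavity around the abdominal organs. Tumour cells carry a small circular mitochondrial genome that encodes subunits of the respiratory chain and the mitochondrial ribosomal RNAs, while the other subunits are encoded in the nucleus. Growth factors, inflammatory signals and cell stress act through MAP kinases, NF-kB and steroid receptors and switch on early response genes within minutes, among them transcription factors, phosphatases that dampen the signal, and secreted cytokines. Low sterol levels switch on the genes of cholesterol synthesis through SREBP2, and genes of mitosis are transcribed late in the cell cycle.

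The deposited values were TPM (transcript abundances scaled for transcript length and library total), so levels can be compared between genes, while the depth in reads is unknown. The sorted-cell table held 12461 entries, of which 17 were calendar dates left by spreadsheet conversion of gene symbols and were set aside. A gene was tested when it reached 1 TPM in 5 or more of the 15 sorted libraries, which 12357 genes did, and the test was made on log2(TPM + 1) with limma. Fold changes are pleural minus peritoneal on that scale, which understates the change of low genes. A gene was called at a Benjamini-Hochberg adjusted p below 0.05 over all genes tested, and values after ± are SD with n = 5 each. The markers of the sorted population were as follows. Msln, the surface antigen mesothelin, had 159, 286, 316, 206 and 278 TPM in pleural cells and 214, 304, 237, 243 and 208 TPM in peritoneal cells. Ptprc, which encodes CD45, reached at most 2.05 TPM in a pleural library and 0.946 TPM in a peritoneal library. The 12 leukocyte markers, all 12 in the table, summed to 161 ± 23.2 TPM in pleural cells and 160 ± 18.0 TPM in peritoneal cells (difference 1.59 TPM, two-sided exact permutation p = 0.905, n = 5 each, where 0.00794 is the smallest p such a design allows).

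Some libraries stood apart from the others of their label. Peritoneal 2 and 5 lay at the far end of the first principal component, which held 33.4% of the variance, and their log2 values correlated with peritoneal 1, 3 and 4 at Pearson r of 0.957 to 0.973 across genes, against 0.983 to 0.988 among peritoneal 1, 3 and 4 and 0.975 to 0.983 among the pleural libraries. Pleural libraries correlated with peritoneal 1, 3 and 4 at 0.968 to 0.982, and with peritoneal 2 and 5 at 0.942 to 0.962. Peritoneal 1, 3 and 4 were thus at the median closer to the pleural libraries (0.975) than to peritoneal 2 and 5 (0.967). Results are therefore given with all libraries and without peritoneal 2 and 5. Pleural 5 held transcripts of lung epithelium: of 8 markers, 2 were in the table, and their summed level was 0.299, 0.186, 0.143, 0 and 70.8 TPM in pleural 1 to 5 and 0, 0.117, 0, 0 and 0.0635 TPM in peritoneal 1 to 5. They were the surfactant gene Sftpc, at 31.9 TPM in pleural 5, and the club cell gene Scgb1a1, at 38.9 TPM. Red blood cell markers (4 of 7 in the table) summed to 60.2, 155, 47.3, 46.2 and 481 TPM in pleural 1 to 5 and 20.5, 192, 34.4, 32.9 and 36.4 TPM in peritoneal 1 to 5, highest in pleural 5 among pleural libraries and in peritoneal 2 among peritoneal ones. No gene of the marker lists for leukocytes, macrophages, neutrophils, B cells, endothelium, fibroblasts, adipocytes or muscle was called by limma, and 1 leukocyte, 1 endothelial, 1 fibroblast and 2 adipocyte markers had an unadjusted p below 0.05. Of 10 mesothelial markers, Msln and Gata6 were in the table, and Gata6, a transcription factor, was called at 2.86 ± 0.353 TPM in pleural cells and 1.86 ± 0.502 TPM in peritoneal cells (log2 fold change 0.45, adjusted p = 0.0497, 0.207 without peritoneal 2 and 5), a call lost in 12 of the 15 fits that left out 1 library. In sorted bulk cells, more transcript per cell and more cells with the transcript cannot be told apart.

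Pleural cells differed from peritoneal cells at 1231 genes, 9.96% of those tested: 550 (4.45%) were higher and 681 (5.51%) were lower. The higher genes moved further, with 128 at least 2-fold higher and 24 at least 2-fold lower, and with median log2 fold changes of 0.71 over the higher and -0.45 over the lower genes, against 0.0041 over all genes tested. The 5 pleural libraries lay wholly above the 5 peritoneal ones at 445 genes (3.6%) and wholly below at 737 (5.96%). Without peritoneal 2 and 5, 137 genes were called higher (1.11%) and 345 lower (2.79%), 482 in all (3.9%). Of these, 128 were among the 550 higher genes and 238 among the 681 lower genes, no gene was called in opposite directions, and all 1231 genes kept their sign. Single libraries moved the count by over 1.5 times: it was 731 without pleural 3, 525 without pleural 4, 695 without pleural 5, 531 without peritoneal 2 and 816 without peritoneal 5. Scaling by median ratios called 1927 genes, 55.2% of them higher, and rescaling without mitochondrial, haemoglobin and antibody genes called 1098, 55.6% of them higher, against 44.7% of the 1231. Of 110 called genes named here, 53 lost the call without peritoneal 2 and 5 and 39 in at least 1 fit without a single library, at an adjusted p of up to 0.128. The genes given below by their fold change alone are mostly among these. Each list count below is to be set beside the shares of all genes tested, 4.45% higher and 5.51% lower. Without peritoneal 2 and 5 those shares were 1.11% and 2.79%.

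**Figure D1:**
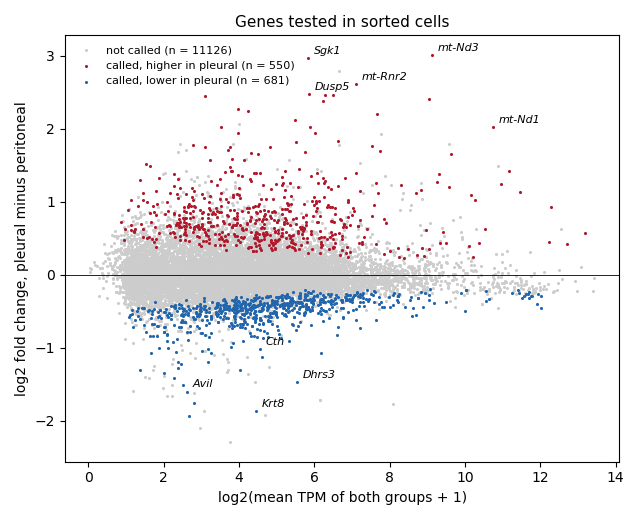
Each point is 1 of the 12357 genes tested. The x axis is the log2 of the mean TPM over both groups plus 1, and the y axis is the log2 fold change, pleural minus peritoneal, on log2(TPM + 1). Red points are the 550 genes called higher in pleural cells and blue points the 681 called lower, at an adjusted p below 0.05. The red points reach 3.02 (mt-Nd3), while the blue points are more and closer to 0.

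The mitochondrial genome gave the largest median difference of all gene lists, in a shared direction but by amounts that differed widely between transcripts. Of 15 transcripts, 14 rose in pleural cells and none fell, with a median log2 fold change of 1.24, and the same number rose without peritoneal 2 and 5. Their share of all listed TPM was 5.72 ± 0.449% in pleural cells (5.13% to 6.37%) and 3.62 ± 0.576% in peritoneal cells (2.91% to 4.50%), a difference of 2.10 percentage points with no overlap (two-sided exact permutation p = 0.00794, the smallest possible with n = 5 each). Without peritoneal 2 and 5 the two-sided exact permutation p on the absolute difference of means was 0.0179, the smallest that 5 against 3 libraries allow. The transcript not called was mt-Co1, the largest subunit of cytochrome c oxidase, at 8965 ± 619.7 TPM in pleural cells and 8329 ± 729.9 TPM in peritoneal cells (log2 fold change 0.11, adjusted p = 0.324, with the sign turned under quantile normalization).

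mt-Nd3, a subunit of respiratory complex I, had 1159.8, 740.4, 968, 792 and 1183 TPM in pleural cells and 182, 329, 84.1, 50.7 and 83.9 TPM in peritoneal cells. Its log2 fold change of 3.02 (SE 0.37, adjusted p = 0.000653) was the largest of all genes named here. mt-Nd1, another complex I subunit, had 2422, 2075, 2573, 3361 and 3174 TPM in pleural cells and 879.8, 912, 598, 434 and 595 TPM in peritoneal cells, a log2 fold change of 2.02 (SE 0.18, adjusted p = 4.4e-05). In both, the lowest pleural library was above the highest peritoneal one by over 2-fold. mt-Rnr2, the large mitochondrial ribosomal RNA, had 252.1, 351, 175, 248 and 159.9 TPM in pleural cells and 48.1, 26.9, 37.1, 41.8 and 31.4 TPM in peritoneal cells (log2 fold change 2.62, SE 0.22, adjusted p = 3.6e-05). mt-Nd5 rose by less, 1.27 on the log2 scale (adjusted p = 0.000309), with means of 873 ± 199 TPM in pleural cells and 356 ± 44 TPM in peritoneal cells. The ATP synthase subunits mt-Atp6 and mt-Atp8, whose genes overlap so that the split of their reads is uncertain, rose by 0.57 (adjusted p = 0.00375) and 0.63 (adjusted p = 0.000869). Without peritoneal 2 and 5 the log2 fold changes were 3.36 for mt-Nd3, 2.41 for mt-Rnr2 and 2.13 for mt-Nd1, and each passed (adjusted p = 0.000235, 0.000272 and 0.000235). In subcutaneous cells the means were 1032 ± 227 TPM for mt-Nd3 and 2970.1 ± 294 TPM for mt-Nd1, within the range of pleural cells.

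**Figure D2:**
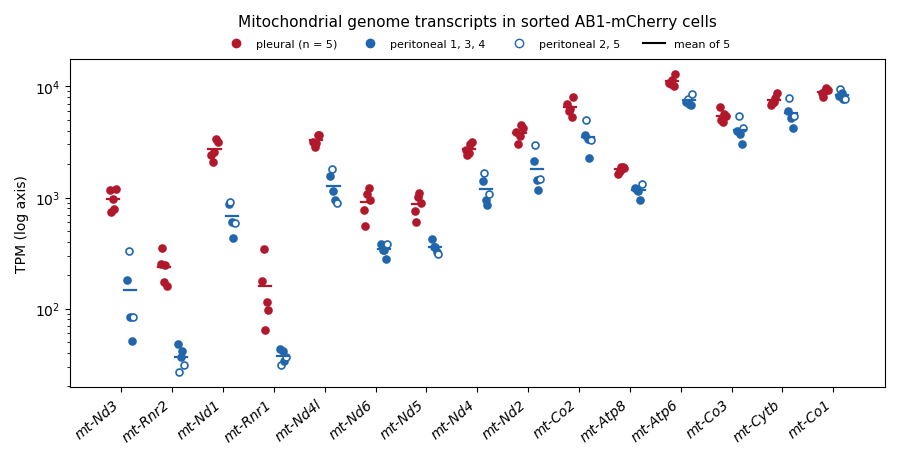
TPM on a log axis of the 15 mitochondrial genome transcripts in each sorted library, ordered by fold change, with pleural libraries left of peritoneal ones. Each point is 1 library, open points are peritoneal 2 and 5, and bars are means of 5. mt-Nd3, at the far left, has the largest fold change, with 740 TPM or more in pleural cells and 329 TPM or less in peritoneal cells, and mt-Co1 at the far right, the only one of the 15 not called, overlaps.

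Whole tumours did not show a gap of that size. mt-Nd3 averaged 1410.4 ± 274 TPM in 6 pleural tumours and 1323 ± 358 TPM in 5 peritoneal tumours, and mt-Nd1 averaged 3161 ± 589 TPM in pleural tumours and 2923 ± 764 TPM in peritoneal tumours, and their libraries overlapped. The labels state that whole tumours were placed in RNA preservative as tissue and that sorted cells were placed in it after the sort.

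Calls among 2 lists of mitochondrial proteins made from nuclear genes were all lower in pleural cells in the fit of all libraries. Of 82 nuclear encoded respiratory chain subunits, none rose and 3 fell, with a median log2 fold change of -0.12, and 1 fell without peritoneal 2 and 5. Since 5.51% of all genes tested fell, a count of 3 is no more than the background. That count of 3 was 1 without pleural 3 or peritoneal 2, 8 without peritoneal 1, 5 without subcutaneous 2. Of 77 mitochondrial ribosomal proteins, none rose and 13 fell (median -0.22), and 3 fell without peritoneal 2 and 5. Leaving out a single library gave 3 to 15 in place of 13: 6 without pleural 2, 3 or 5 or peritoneal 4 or 5, 3 without pleural 4 or peritoneal 2, 8 without subcutaneous 3. Mrpl17, of the large mitochondrial ribosomal subunit, had 119.8, 123, 119.6, 97.4 and 113 TPM in pleural cells and 157, 166, 146, 145 and 184 TPM in peritoneal cells (log2 fold change -0.47, adjusted p = 0.00743). Mrpl15 of the same subunit had a log2 fold change of -0.36 (adjusted p = 0.0095), and Atp5h, a nuclear encoded ATP synthase subunit, one of -0.34 (adjusted p = 0.00925). The other 2 subunits called were Ndufa6 (-0.26) and Ndufs7 (-0.34) of complex I, neither of which passed without peritoneal 2 and 5. For Mrpl17, Mrpl15 and Atp5h the pleural libraries lay wholly below the peritoneal ones, and each passed without peritoneal 2 and 5 as well.

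Early response genes made up the next large group, with promoters of 3 members shown because their NF-kB sites or their pair of CArG boxes, the site of serum response factor, lie in them. The windows are from RefSeq (GRCm38.p6), run from 250 bases before to 50 bases after the annotated start, and carry matches in capitals. The NF-kB motif was searched on both strands, so that overlapping matches can run together, and 20.7% of all 32851 windows of the table hold it. A CArG box was in 1.63% of all windows. A match is a description of the letters and does not show binding.
Cxcl1 (chr5:90890995-90891294, plus strand): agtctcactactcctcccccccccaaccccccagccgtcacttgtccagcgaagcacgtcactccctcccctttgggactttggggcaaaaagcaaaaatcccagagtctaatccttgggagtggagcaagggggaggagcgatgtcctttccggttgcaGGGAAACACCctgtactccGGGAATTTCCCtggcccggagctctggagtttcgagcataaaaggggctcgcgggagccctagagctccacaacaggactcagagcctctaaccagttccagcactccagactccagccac
Cxcl2 (chr5:90903649-90903948, plus strand): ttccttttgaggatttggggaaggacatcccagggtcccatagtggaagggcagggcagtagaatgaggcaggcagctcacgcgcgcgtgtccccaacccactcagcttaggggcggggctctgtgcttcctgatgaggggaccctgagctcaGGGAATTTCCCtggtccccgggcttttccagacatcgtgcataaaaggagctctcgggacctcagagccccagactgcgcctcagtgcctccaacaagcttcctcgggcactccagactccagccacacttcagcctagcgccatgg
Dusp5 (chr19:53528895-53529194, plus strand): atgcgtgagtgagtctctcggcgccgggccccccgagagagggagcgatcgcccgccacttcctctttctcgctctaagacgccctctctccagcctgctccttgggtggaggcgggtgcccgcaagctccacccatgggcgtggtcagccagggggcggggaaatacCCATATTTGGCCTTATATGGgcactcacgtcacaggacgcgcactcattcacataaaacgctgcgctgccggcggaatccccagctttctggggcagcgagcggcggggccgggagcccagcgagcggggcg

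Of 20 immediate early transcription factors, 11 rose in pleural cells and none fell, with a median log2 fold change of 1.06. Without peritoneal 2 and 5, 2 rose. The count was 7 without pleural 3 or peritoneal 2, 4 or 5. Egr1, a zinc finger factor induced by growth factors, had 1406, 1434, 1699, 1498 and 1638 TPM in pleural cells and 734, 753, 1027, 540.2 and 607 TPM in peritoneal cells (log2 fold change 1.10, SE 0.21, adjusted p = 0.00795). Ier3, an early response gene linked to cell survival, had 278, 261, 342, 363 and 350.1 TPM in pleural cells and 70.3, 80.3, 189, 70.8 and 113 TPM in peritoneal cells (log2 fold change 1.69, SE 0.29, adjusted p = 0.00475). These 2 were the members that also passed without peritoneal 2 and 5, at 1.05 (adjusted p = 0.04) and 1.68 (adjusted p = 0.0265). Nr4a3, an orphan nuclear receptor, had 17.9, 13.7, 7.83, 13.4 and 11.1 TPM in pleural cells and 1.52, 0.128, 7.74, 0.975 and 0.789 TPM in peritoneal cells. The groups barely separated, since peritoneal 3 was just below pleural 3, and the log2 fold change of 2.45 (adjusted p = 0.00925) was 1.93 without peritoneal 2 and 5 (adjusted p = 0.0524).

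Fos and Fosb, which encode partners in the AP-1 factor, were not called. Fos had 588, 555, 541, 402 and 882 TPM in pleural cells and 607, 657, 707, 581 and 520.4 TPM in peritoneal cells (log2 fold change -0.089, adjusted p = 0.825, with the sign turned without pleural 4). Fosb had 415, 409.6, 456, 468 and 429 TPM in pleural cells and 161, 246, 356, 115 and 196 TPM in peritoneal cells, with no overlap but an adjusted p of 0.06. It passed without peritoneal 3 (adjusted p = 0.032) or subcutaneous 2 (adjusted p = 0.0143). Csrnp1, a nuclear protein found as a gene induced through AXIN1, was at 124, 118, 120.2, 170.0 and 72.3 TPM in pleural cells and 15.7, 10.4, 68.3, 18 and 21.9 TPM in peritoneal cells (log2 fold change 2.39, SE 0.46, adjusted p = 0.00787, 0.0435 without peritoneal 2 and 5). Peritoneal 3 was the highest peritoneal library for Egr1, Ier3, Nr4a3, Fos, Fosb and Csrnp1. The mean log2 level over the 20 immediate early factors was 7.09, 7.10, 7.11, 7.34 and 7.15 in pleural 1 to 5 and 5.96, 5.94, 6.89, 5.77 and 6.0 in peritoneal 1 to 5, so peritoneal 3 lay next to the pleural range and the other 4 peritoneal libraries lay about 1 unit below it.

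Feedback inhibitors of MAP kinase signalling rose in part: 5 of 15 rose and none fell, with a median of 0.41, and 2 rose without peritoneal 2 and 5. The count was 3 without pleural 3 or 4 or peritoneal 2. Dusp5, a nuclear phosphatase that inactivates ERK, had 64.9, 87.2, 116, 175 and 48.8 TPM in pleural cells and 11.7, 11.3, 29.7, 12.6 and 16 TPM in peritoneal cells (log2 fold change 2.48, SE 0.42, adjusted p = 0.00463). It held at 2.37 without peritoneal 2 and 5 (adjusted p = 0.0285). Dusp8, a phosphatase that acts on JNK and p38 and stood outside the list, had 26.2, 27.3, 31.8, 41.9 and 19.8 TPM in pleural cells and 4.58, 3.18, 16.5, 2.9 and 4.98 TPM in peritoneal cells (log2 fold change 2.24, adjusted p = 0.011), and missed the threshold without peritoneal 2 and 5 (adjusted p = 0.0556). Both genes were lowest in pleural 5 among the pleural libraries and highest in peritoneal 3 among the peritoneal ones, with no overlap. Spry4, an inhibitor upstream of RAS, rose by 0.61 (adjusted p = 0.0148, 0.0441 without peritoneal 2 and 5). Errfi1, which inhibits the EGF receptor, averaged 567 ± 183 TPM in pleural cells and 254 ± 59.1 TPM in peritoneal cells (log2 fold change 1.13, adjusted p = 0.0121, 0.0656 without peritoneal 2 and 5). The other 2 called members, Spry2 (0.98) and Phlda1 (1.23), did not pass without peritoneal 2 and 5.

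**Figure D3:**
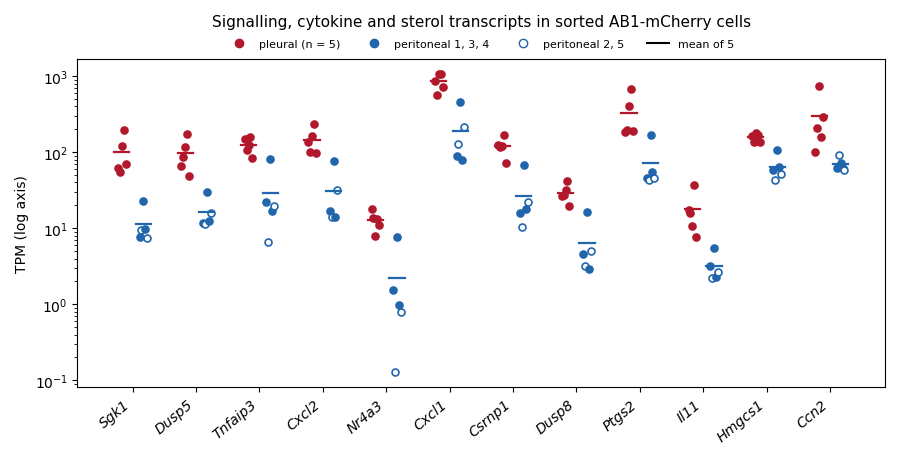
TPM on a log axis of 12 transcripts in each sorted library, with pleural libraries left of peritoneal ones. Each point is 1 library, open points are peritoneal 2 and 5, and bars are means of 5. The highest peritoneal point is peritoneal 3 for every gene shown but Ccn2, where it is peritoneal 2, and the pleural points lie above all peritoneal points for each gene.

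Of 17 NF-kB feedback and target genes, 3 rose and none fell (median 0.52), and 1 rose without peritoneal 2 and 5. The count was 7 without peritoneal 3, 5 without subcutaneous 2. Tnfaip3, which encodes the NF-kB inhibitor A20, had 149, 106, 125, 161 and 84.1 TPM in pleural cells and 22.4, 6.52, 81.7, 17.1 and 19.5 TPM in peritoneal cells. The gap between pleural 5 and peritoneal 3 was narrow, and the log2 fold change of 2.47 (SE 0.55, adjusted p = 0.0151) was 1.91 without peritoneal 2 and 5 (adjusted p = 0.077). Rel, an NF-kB subunit, had 11.9, 6.68, 6.97, 17.9 and 5.00 TPM in pleural cells and 2.07, 0.942, 3.85, 2.15 and 1.06 TPM in peritoneal cells (log2 fold change 1.78, adjusted p = 0.00787, 0.0481 without peritoneal 2 and 5). The remaining member was Nfkbia, which encodes the inhibitor that holds NF-kB in the cytoplasm, with a log2 fold change of 1.20 (adjusted p = 0.0325, 0.096 without peritoneal 2 and 5), a call lost in 8 of the 15 fits that left out 1 library.

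Chemokines and cytokines that recruit neutrophils were among the largest changes. Of 21 chemokines and inflammatory cytokines, 5 rose and none fell (median 0.33), 3 rose without peritoneal 2 and 5, and 3 rose without peritoneal 2 alone. Cxcl1, a ligand of the neutrophil receptor CXCR2, had 854, 558, 1055, 1060.0 and 728 TPM in pleural cells and 88.2, 129.9, 452, 78.7 and 215 TPM in peritoneal cells (log2 fold change 2.41, SE 0.48, adjusted p = 0.0096). Cxcl2, a second CXCR2 ligand, had 136, 101, 163, 234 and 96.7 TPM in pleural cells and 16.9, 14.1, 77.6, 14.1 and 31.4 TPM in peritoneal cells (log2 fold change 2.46, SE 0.46, adjusted p = 0.00703). Both held without peritoneal 2 and 5, at 2.49 (adjusted p = 0.0377) and 2.33 (adjusted p = 0.0356), and both promoters printed above carry the run of letters GGGAATTTCCC. Il11, a cytokine of the IL-6 family, had 17.3, 15.7, 10.6, 37.4 and 7.57 TPM in pleural cells and 3.17, 2.22, 5.52, 2.25 and 2.65 TPM in peritoneal cells (log2 fold change 2.03, adjusted p = 0.00489, 0.0332 without peritoneal 2 and 5). Ptgs2, the inducible cyclooxygenase COX-2 that makes prostaglandin precursors, had 185, 193, 404, 681 and 192 TPM in pleural cells and 45.8, 42.8, 168, 55.4 and 46.4 TPM in peritoneal cells (log2 fold change 2.20, adjusted p = 0.0163, 0.0865 without peritoneal 2 and 5). Pleural 3 and 4 were the highest pleural libraries for Ptgs2, and pleural 1, 2 and 5 lay close above peritoneal 3. The summed leukocyte markers, given above, were close in the 2 groups, but the sort left out leukocytes, so they do not measure leukocytes in the tumours. The other 2 called members were Lif (1.82), of the IL-6 family, and the alarmin Il33 (0.80), log2 fold changes that did not pass without peritoneal 2 and 5.

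Calls among growth factors were all higher in pleural cells in the fit of all libraries. Of 22 growth factors and receptors, 4 rose and none fell (median 0.34), against 4.45% of all genes tested that rose. Without peritoneal 2 and 5, 3 rose, and the count was 4 whichever single library was left out. Hbegf, a heparin-binding EGF receptor ligand, had 81.6, 96, 84.4, 137 and 84.1 TPM in pleural cells and 42.8, 30.4, 47.5, 37.1 and 39.9 TPM in peritoneal cells (log2 fold change 1.26, SE 0.17, adjusted p = 0.00114, 0.00953 without peritoneal 2 and 5). Ereg, which encodes epiregulin, a further ligand of that receptor, had 27.5, 42.4, 83.1, 75.3 and 41 TPM in pleural cells and 14, 18.9, 24.1, 19.1 and 14.7 TPM in peritoneal cells (log2 fold change 1.43, adjusted p = 0.011, 0.049 without peritoneal 2 and 5). Neither overlapped between the groups. Fgf7, a fibroblast growth factor that acts on epithelium, averaged 32.1 ± 8.58 TPM in pleural cells and 17.3 ± 3.83 TPM in peritoneal cells (log2 fold change 0.84, adjusted p = 0.0133, 0.0719 without peritoneal 2 and 5). The remaining member was Areg, amphiregulin, again a ligand of the EGF receptor (log2 fold change 1.24, adjusted p = 0.0173, 0.0481 without peritoneal 2 and 5).

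Of 19 genes that respond to YAP or TGF-beta, 7 rose and none fell (median 0.34), and 2 rose without peritoneal 2 and 5. The count was 4 without pleural 4 or peritoneal 2. Ccn2, a matricellular protein induced by both pathways, had 99.4, 207, 736, 161 and 289 TPM in pleural cells and 61.4, 92.5, 71.9, 62.6 and 58.1 TPM in peritoneal cells (log2 fold change 1.76, SE 0.38, adjusted p = 0.0128, 0.0437 without peritoneal 2 and 5). The pleural libraries spread widely, with pleural 3 far above pleural 1, while the peritoneal libraries and the subcutaneous mean (68.1 ± 18.6 TPM) were close together. Skil, a repressor of SMAD signalling, had 38.1, 30.3, 42.8, 66.9 and 29.2 TPM in pleural cells and 16.9, 5.78, 21.5, 13.8 and 5.46 TPM in peritoneal cells (log2 fold change 1.74, adjusted p = 0.0103, 0.0471 without peritoneal 2 and 5). Smad7, which blocks the TGF-beta receptor, averaged 18.6 ± 5.62 TPM in pleural cells and 5.55 ± 4.15 TPM in peritoneal cells with peritoneal 3 inside the pleural range (log2 fold change 1.71, adjusted p = 0.011, 0.0661 without peritoneal 2 and 5).

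Regulators of coagulation and fibrin breakdown rose in part. Of 17 complement and coagulation genes 5 rose and none fell (median 0.11), 1 rose without peritoneal 2 and 5, and the count was 3 without pleural 4 or peritoneal 2. They included Plat, tissue plasminogen activator, with a log2 fold change of 0.54 (adjusted p = 0.00786, 0.0401 without peritoneal 2 and 5), and Plaur, the urokinase receptor, with 0.68 (adjusted p = 0.011, 0.0533 without them). F3, tissue factor, which starts coagulation (1.15), and Plau, urokinase (0.63), were also called and did not pass without peritoneal 2 and 5.

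Of 11 genes that glucocorticoids induce, 7 rose and none fell (median 0.73), and 2 rose without peritoneal 2 and 5. The count was 4 without pleural 3 or peritoneal 2 or 5. Sgk1, a kinase that controls sodium channels and is induced by corticosteroids and by serum, had 61.1, 54.6, 122, 197 and 70.1 TPM in pleural cells and 7.76, 9.47, 22.7, 9.91 and 7.45 TPM in peritoneal cells. Every pleural library was over 2-fold above every peritoneal one, and the log2 fold change was 2.97 (SE 0.46, adjusted p = 0.00323, 0.0227 without peritoneal 2 and 5). Per1, a clock gene that glucocorticoids also induce, had 13.7, 32.1, 52.4, 31.6 and 39.7 TPM in pleural cells and 6.28, 10.7, 16.2, 6.7 and 8.73 TPM in peritoneal cells, with pleural 1 inside the peritoneal range (log2 fold change 1.66, adjusted p = 0.011, 0.0412 without peritoneal 2 and 5). Klf9, a transcription factor induced by steroid hormones, averaged 23.4 ± 8.61 TPM in pleural cells and 8.45 ± 3.11 TPM in peritoneal cells (log2 fold change 1.35, adjusted p = 0.011, 0.0618 without peritoneal 2 and 5). Bcl6, a transcriptional repressor, had 14.3, 14.3, 20.6, 27 and 15.8 TPM in pleural cells and 12.6, 8.56, 15.1, 7.81 and 8.23 TPM in peritoneal cells, which overlapped (log2 fold change 0.76, adjusted p = 0.0246, 0.114 without peritoneal 2 and 5). Its call was also lost without pleural 3 (adjusted p = 0.0553), pleural 4 (0.0629), peritoneal 2 (0.065) or peritoneal 5 (0.0519) alone. Errfi1 and Per1 stand in more than 1 list, so the counts of the lists are not independent of each other. Of 15 clock genes, 4 rose and 1 fell: besides Per1, Clock (0.72), Nr1d1 (0.93) and Bhlhe40 (1.20) were higher and Dbp (-0.55) was lower (log2 fold changes). Without peritoneal 2 and 5, Per1 was called and the others were not, and the count of 4 was 2 without pleural 3 or 4 or peritoneal 5, 1 without peritoneal 2.

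Of 19 p53 target genes, 3 rose and none fell (median 0.25), and 2 rose and 1 fell without peritoneal 2 and 5. Plk2, a polo-like kinase of the stress response, had 85.5, 78.6, 117, 182 and 73.7 TPM in pleural cells and 36.2, 53.3, 49.5, 38.8 and 34 TPM in peritoneal cells (log2 fold change 1.26, SE 0.27, adjusted p = 0.0117, 0.0412 without peritoneal 2 and 5). Mdm2, the ubiquitin ligase that degrades p53, had 70.8, 68.4, 73.9, 93.5 and 86.3 TPM in pleural cells and 52.4, 51.1, 47.9, 47.5 and 27.5 TPM in peritoneal cells (log2 fold change 0.81, adjusted p = 0.00786, 0.012 without peritoneal 2 and 5). Neither gene overlapped, and peritoneal 5 was lowest for both. The remaining member was Plk3 (0.64, adjusted p = 0.0301), a call lost in 7 of the 15 fits that left out 1 library. Rrm2b was the gene lower without peritoneal 2 and 5 (log2 fold change -0.50, adjusted p = 0.0396), and had a log2 fold change of 0.17 with all libraries (adjusted p = 0.768).

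Cholesterol synthesis and uptake was the functional list in which most members rose after the mitochondrial genome. Of 21 genes, 14 rose and none fell, with a median log2 fold change of 0.64, and 9 rose without peritoneal 2 and 5. Leaving out a single library gave counts of 11 to 16. The promoter of Hmgcs1 is shown since it holds the sterol regulatory element TCACNCCAC (in capitals, searched on both strands), found in 1.24% of all windows of the RefSeq table (GRCm38.p6).
Hmgcs1 (chr13:119690101-119690400, plus strand): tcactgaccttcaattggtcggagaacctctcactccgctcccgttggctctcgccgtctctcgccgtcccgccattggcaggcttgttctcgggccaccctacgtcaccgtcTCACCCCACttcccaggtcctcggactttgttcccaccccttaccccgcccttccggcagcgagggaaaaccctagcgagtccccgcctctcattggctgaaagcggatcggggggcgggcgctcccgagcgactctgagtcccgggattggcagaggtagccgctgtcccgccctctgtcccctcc

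Hmgcs1, the HMG-CoA synthase of the early pathway, had 163, 138, 180.1, 166 and 138 TPM in pleural cells and 57.6, 43.1, 107, 64.7 and 51.2 TPM in peritoneal cells (log2 fold change 1.33, SE 0.25, adjusted p = 0.00703, 0.0421 without peritoneal 2 and 5). The groups did not overlap, peritoneal 3 was again the highest peritoneal library, and the subcutaneous mean of 181 ± 61.2 TPM was near the pleural level. Later enzymes rose by less: Sqle, squalene epoxidase, by 0.73 (adjusted p = 0.00545, 0.035 without peritoneal 2 and 5), and Sc5d, a sterol desaturase, by 0.64 (adjusted p = 0.00481, 0.0281). Of 20 genes of lipid storage and fatty acid metabolism, 2 rose and 1 fell (median 0.21), against 4.45% and 5.51% of all genes tested. The higher ones were Scd2, a fatty acid desaturase (0.44), and Cd36, a fatty acid transporter (1.30), neither of which passed without peritoneal 2 and 5, and single libraries left out gave 0 to 4 higher genes: 1 without pleural 2 or 3 or peritoneal 4, 0 without pleural 4 or 5 or peritoneal 2 or 5, 4 without peritoneal 1. The lower one, Plin2, which coats lipid droplets, had 130.0, 173, 171, 159 and 154 TPM in pleural cells and 245, 254, 235, 267 and 207 TPM in peritoneal cells (log2 fold change -0.62, SE 0.10, adjusted p = 0.00383, 0.00953 without peritoneal 2 and 5).

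Stress chaperones changed less evenly. Of 19 heat shock chaperones, 5 rose and none fell, with a median of 0.89, and 1 rose without peritoneal 2 and 5. The count was 2 without pleural 1 or 2 or peritoneal 5, 1 without pleural 4 or peritoneal 2, 3 without pleural 5 or subcutaneous 1, 3 or 4. Hspb8, a small heat shock protein, had 131, 116, 89, 149 and 95.9 TPM in pleural cells and 52, 49, 75.9, 59.9 and 65.7 TPM in peritoneal cells (log2 fold change 0.92, SE 0.18, adjusted p = 0.00888, 0.0398 without peritoneal 2 and 5). The mean log2 level over the list was 8.13, 7.89, 6.86, 7.92 and 7.11 in pleural 1 to 5 and 7.13, 6.34, 7.27, 6.96 and 6.59 in peritoneal 1 to 5, so pleural 3 and 5 lay within the peritoneal range and pleural 1, 2 and 4 above it. The other 4 called members were the co-chaperones Dnajb4 (1.69) and Bag3 (1.39), the small heat shock protein Cryab (1.08) and Hsp90aa1 (1.03), none of which passed without peritoneal 2 and 5. Of 19 endoplasmic reticulum chaperones and unfolded protein response genes, only Dnajb9, a co-chaperone induced by that response, was called in the fit of all libraries, at 58.3, 37.5, 40.7, 65.5 and 48.3 TPM in pleural cells and 22.9, 20.6, 29.8, 29.7 and 20.5 TPM in peritoneal cells (log2 fold change 0.98, adjusted p = 0.00837, 0.0486 without peritoneal 2 and 5). Without peritoneal 4, 2 genes of that list were called.

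Of 20 hypoxia response genes, 5 rose and none fell (median 0.54), and 1 rose without peritoneal 2 and 5. The count was 3 without pleural 4 or 5 or peritoneal 5, 2 without peritoneal 2, 11 without peritoneal 3, 8 without subcutaneous 4. Pdk1, a kinase that limits the entry of pyruvate into mitochondria, had 41.9, 46.8, 59.7, 59.1 and 58.7 TPM in pleural cells and 31.8, 23.4, 35.3, 33.7 and 14.3 TPM in peritoneal cells (log2 fold change 0.97, adjusted p = 0.011, 0.0265 without peritoneal 2 and 5). Car9, a carbonic anhydrase that marks hypoxic cells, had 72.1, 91.6, 119, 145 and 119 TPM in pleural cells and 39.6, 75.9, 103, 64.3 and 52.8 TPM in peritoneal cells, which overlapped (log2 fold change 0.73, adjusted p = 0.0656). It passed without pleural 1 (adjusted p = 0.0393) or peritoneal 3 (adjusted p = 0.0247), and its subcutaneous mean was 23 ± 6.14 TPM. The other 4 called members, Bhlhe40 (1.20), Kdm3a (0.57), Egln1 (0.45) and P4ha1 (0.44), did not pass without peritoneal 2 and 5. Of 17 glycolysis genes, 3 rose and none fell (median 0.17): Ldha (0.44), Pgk1 (0.40) and Pgam1 (0.37). Of these, none was called without peritoneal 2 and 5, and the count was 1 without pleural 2 or 4 or peritoneal 2 or 5, 0 without pleural 3 or 5.

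**Figure D4:**
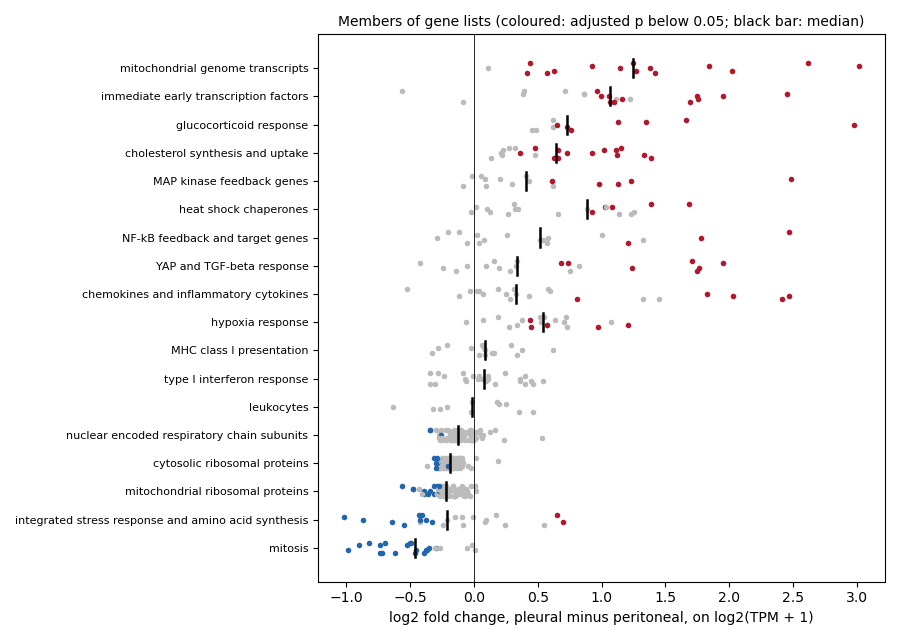
Log2 fold change, pleural minus peritoneal, of each tested member of 18 gene lists. Each point is 1 gene, red and blue points are called higher and lower in pleural cells at an adjusted p below 0.05, grey points are not called, and black bars are list medians. The mitochondrial genome and immediate early lists lie furthest to the right, with medians of 1.24 and 1.06, and mitosis furthest to the left, with -0.46.

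Genes of mitosis were lower in pleural cells. Of 23 genes, 18 fell and none rose, with a median log2 fold change of -0.46, 15 fell without peritoneal 2 and 5, and single libraries left out gave 14 to 18. The promoters of 2 of them are shown because they carry TTTGAA, the CHR element through which many late cell cycle genes are repressed (in capitals, searched on both strands). Of the 20 mitosis genes with a window in the RefSeq table (GRCm38.p6), 14 (70%) held the letters, against 17.9% of all windows. Of the same 20 genes, 9 (45%) had the NF-kB motif, against 20.7% of all windows. The mitosis shares count genes, while the shares of all windows count windows (32851 for 27025 genes). A gene with several windows has more chances of a match, so these shares are not in like units.
Plk1 (chr7:122159185-122159484, plus strand): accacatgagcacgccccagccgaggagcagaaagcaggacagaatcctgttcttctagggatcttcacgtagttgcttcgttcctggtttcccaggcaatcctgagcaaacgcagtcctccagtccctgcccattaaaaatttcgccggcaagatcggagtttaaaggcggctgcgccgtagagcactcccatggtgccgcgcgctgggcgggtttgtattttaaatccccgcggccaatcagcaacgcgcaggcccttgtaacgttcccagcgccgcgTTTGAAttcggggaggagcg
Cdc20 (chr4:118437294-118437593, minus strand): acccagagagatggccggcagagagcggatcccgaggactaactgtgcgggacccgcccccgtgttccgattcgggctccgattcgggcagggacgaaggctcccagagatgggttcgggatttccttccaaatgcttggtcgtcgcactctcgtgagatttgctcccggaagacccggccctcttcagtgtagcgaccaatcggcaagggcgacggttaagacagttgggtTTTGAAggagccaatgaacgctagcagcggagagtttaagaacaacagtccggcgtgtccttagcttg

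Plk1, the polo-like kinase that drives entry into and passage through mitosis, had 30.6, 26.6, 30.5, 24.3 and 23.3 TPM in pleural cells and 53.8, 54.4, 42.6, 51.8 and 54.1 TPM in peritoneal cells (log2 fold change -0.90, SE 0.11, adjusted p = 0.000653, 0.00588 without peritoneal 2 and 5). Cdc20, the activator of the anaphase-promoting complex, had 71.8, 74.8, 75.2, 62.7 and 59.5 TPM in pleural cells and 111, 130.3, 109, 116 and 148 TPM in peritoneal cells (log2 fold change -0.82, SE 0.10, adjusted p = 0.000774, 0.00408 without peritoneal 2 and 5). Ube2c, the ubiquitin-conjugating enzyme of the same complex, had 112, 115, 115, 101 and 104 TPM in pleural cells and 161, 207, 154, 180.1 and 219 TPM in peritoneal cells (log2 fold change -0.73, SE 0.093, adjusted p = 0.000774, 0.00204 without peritoneal 2 and 5). In all 3 the pleural libraries lay wholly below the peritoneal ones with a tight spread, and the subcutaneous means (32.4 ± 4.52, 72 ± 7.91 and 133 ± 9.1 TPM) were closer to the pleural level. The mitotic cyclins moved less, Ccnb1 by -0.39 (adjusted p = 0.0151, 0.0438 without peritoneal 2 and 5) and Ccnb2 by -0.36 (adjusted p = 0.011, 0.0412). DNA replication genes were mostly not called: of 30, Ccne1 rose (0.53) and Mcm3 (-0.34) and Pold1 fell (median -0.12), and none was called without peritoneal 2 and 5. Such counts are near the shares of all genes tested, 4.45% higher and 5.51% lower. Single libraries left out gave counts of 0 to 2 for higher and 1 to 3 for lower genes. Pold1, the catalytic subunit of DNA polymerase delta, averaged 43.1 ± 2.03 TPM in pleural cells and 62.8 ± 8.62 TPM in peritoneal cells (log2 fold change -0.53, adjusted p = 0.0152, 0.0735 without peritoneal 2 and 5). Of 25 histone genes 5 fell and none rose (median -0.21), 2 fell without peritoneal 2 and 5, and the count was 3 without pleural 3 or peritoneal 2. H1fx (-0.63), H2afv (-0.30), H2afx (-0.50) and Hist3h2a (-0.54) were 4 of them. H1f0, a linker histone of cells that leave the cycle, was the fifth, at 332 ± 43 TPM in pleural cells and 457 ± 45.7 TPM in peritoneal cells (log2 fold change -0.46, adjusted p = 0.0107, 0.0291 without peritoneal 2 and 5).

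The integrated stress response, in which ATF4 switches on amino acid synthesis, split. Of 23 genes 9 fell and 2 rose (median -0.21), and without peritoneal 2 and 5, 11 fell and 1 rose. The count of 9 was 5 without pleural 4 or 5, and the count of 2 was 1 without pleural 3 or 5 or peritoneal 2 or 5. Cth, which makes cysteine from cystathionine, had 15.6, 14, 17.1, 13 and 12.4 TPM in pleural cells and 39.7, 22.7, 31.6, 33 and 26 TPM in peritoneal cells (log2 fold change -1.02, SE 0.16, adjusted p = 0.00323, 0.00169 without peritoneal 2 and 5). Trib3, a pseudokinase induced by ATF4, had 16.1, 13.2, 21.6, 17.3 and 14.6 TPM in pleural cells and 43.6, 25.2, 31.4, 31 and 25.4 TPM in peritoneal cells (log2 fold change -0.87, SE 0.17, adjusted p = 0.00837, 0.0112 without peritoneal 2 and 5). In both, no pleural library reached the lowest peritoneal one. Nupr1, a stress-induced nuclear protein, had 304, 334, 310.3, 342 and 389 TPM in pleural cells and 548, 445, 522, 442 and 499 TPM in peritoneal cells (log2 fold change -0.55, adjusted p = 0.00601, 0.0221 without peritoneal 2 and 5). Of the 2 that rose, Ddit4 (0.65) did not pass without peritoneal 2 and 5, and the other was Ppp1r15a, which encodes GADD34, the phosphatase subunit that ends the response, at 136, 107, 108, 180.2 and 145 TPM in pleural cells and 68.4, 106, 86.4, 62.2 and 91.3 TPM in peritoneal cells (log2 fold change 0.70, adjusted p = 0.0133, 0.012 without peritoneal 2 and 5). The share of the library taken by mitochondrial transcripts differed between the groups, as given above. Of 79 cytosolic ribosomal proteins, 11 fell and none rose (median -0.19), but none was called without peritoneal 2 and 5, none under median-ratio scaling, and the count was 7 without pleural 2 or peritoneal 4, 1 without pleural 3 or peritoneal 2, 2 without pleural 4 or 5 or peritoneal 5, 34 without peritoneal 1, 20 without peritoneal 3, 6 without subcutaneous 3 or 5.

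The 12 genes with the largest falls had few functions in common. Krt8, a keratin of simple epithelium and of mesothelium, had 1.86, 16.7, 2.55, 11.4 and 22.1 TPM in pleural cells and 29.6, 28.5, 35.4, 30.9 and 31.5 TPM in peritoneal cells. The pleural libraries spread over 10-fold and the peritoneal ones lay close together, with a log2 fold change of -1.87 (SE 0.48, adjusted p = 0.0259), and adjusted p = 0.0586 without pleural 3, 0.0548 without peritoneal 2 and 0.08 without peritoneal 2 and 5. Avil, an actin-binding protein of the villin family, had 0.351, 3.34, 2.1, 1.51 and 3.37 TPM in pleural cells and 7.31, 10.4, 7.94, 11.7 and 3.78 TPM in peritoneal cells (log2 fold change -1.60, adjusted p = 0.0152, 0.0335 without peritoneal 2 and 5). Sncg, gamma-synuclein, had 5.84, 11.9, 3.95, 9.31 and 13.3 TPM in pleural cells and 22.1, 22.8, 21.6, 20.6 and 21 TPM in peritoneal cells (log2 fold change -1.30, adjusted p = 0.00573, 0.03 without peritoneal 2 and 5). For Krt8, Avil and Sncg, pleural 1 or pleural 3 was the lowest library, and all 3 were also lower without overlap in pleural whole tumours, described below. Neat1, the long non-coding RNA that builds nuclear paraspeckles, had 15.5, 11.8, 11.5, 14.2 and 14.3 TPM in pleural cells and 30, 58, 32.9, 28.6 and 15.8 TPM in peritoneal cells (log2 fold change -1.13, adjusted p = 0.0103, 0.000361 without peritoneal 2 and 5). Peritoneal 2 and 5 were the highest and the lowest of the peritoneal libraries for Neat1, and both were above every pleural one.

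The same 12 genes included some known from immune cells or their adhesion. Tnfrsf4, the T cell co-stimulator OX40, had 0.399, 3.06, 0.859, 1.47 and 3.28 TPM in pleural cells and 5.56, 4.59, 6.09, 5.81 and 7.53 TPM in peritoneal cells (log2 fold change -1.42, adjusted p = 0.00925, 0.0379 without peritoneal 2 and 5). Selp, P-selectin, averaged 2.16 ± 1.48 TPM in pleural cells and 6.24 ± 1.96 TPM in peritoneal cells (log2 fold change -1.29, adjusted p = 0.0198), and its call was lost without pleural 4 (adjusted p = 0.0511), peritoneal 2 (0.0571), or peritoneal 2 and 5 (0.0963). Itgb7, an integrin of lymphocytes, had 29.8, 71.6, 36, 38.4 and 60.8 TPM in pleural cells and 88.1, 107, 88.8, 82.7 and 112 TPM in peritoneal cells (log2 fold change -1.07, adjusted p = 0.0158, 0.081 without peritoneal 2 and 5). The markers of T and natural killer cells and of dendritic cells were not among the entries of the table, and Ptprc was near 0 in both groups, as given above. Gpnmb, a membrane glycoprotein of lysosome-rich cells, had 3.29, 5.3, 3.95, 3.56 and 6.18 TPM in pleural cells and 13.9, 11.1, 11.5, 15.7 and 6.36 TPM in peritoneal cells (log2 fold change -1.20, adjusted p = 0.0099, 0.00953 without peritoneal 2 and 5). Bcl2l15, of the BCL2 family, averaged 2.33 ± 0.679 TPM in pleural cells and 6.66 ± 0.925 TPM in peritoneal cells (log2 fold change -1.22, adjusted p = 0.000935, 0.00955 without peritoneal 2 and 5). Anxa8, a calcium-dependent membrane-binding annexin, averaged 2.28 ± 1.3 TPM in pleural cells and 6.1 ± 0.462 TPM in peritoneal cells (log2 fold change -1.20, adjusted p = 0.0103, 0.0463 without peritoneal 2 and 5). Chchd10, a protein of the mitochondrial intermembrane space, averaged 5.25 ± 1.74 TPM in pleural cells and 11.8 ± 1.15 TPM in peritoneal cells (log2 fold change -1.07, adjusted p = 0.0266). Its call was lost without pleural 1 (adjusted p = 0.0506), pleural 3 (0.0546), pleural 4 (0.0611), peritoneal 2 (0.0555), or peritoneal 2 and 5 (0.0758).

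**Figure D5:**
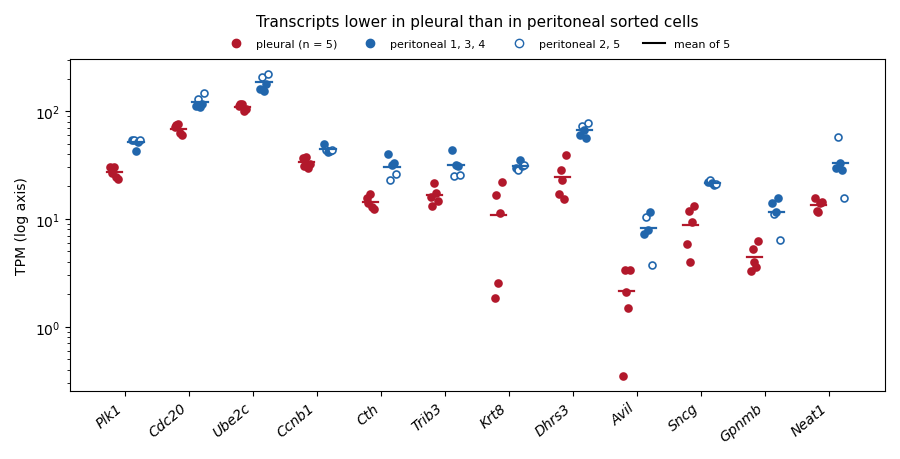
TPM on a log axis of 12 transcripts called lower in pleural cells, with pleural libraries left of peritoneal ones. Each point is 1 library, open points are peritoneal 2 and 5, and bars are means of 5. Pleural points lie below all peritoneal points for each gene, tightly for Plk1, Cdc20 and Ube2c and with a wide pleural spread for Krt8 (1.86 to 22.1 TPM) and Avil (0.351 to 3.37 TPM).

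Retinoid and matrix genes gave smaller groups. Of 10 retinoid genes, 2 fell and none rose in either fit (median -0.058 with all libraries). Dhrs3, which reduces retinal to retinol and is itself induced by retinoic acid, had 17, 28.3, 22.8, 15.2 and 39 TPM in pleural cells and 60.1, 72.2, 67.2, 56 and 77.3 TPM in peritoneal cells (log2 fold change -1.48, SE 0.22, adjusted p = 0.00272, 0.0205 without peritoneal 2 and 5). Crabp2, a carrier of retinoic acid to its receptor, averaged 197 ± 30.1 TPM in pleural cells and 266 ± 23.4 TPM in peritoneal cells with overlap at pleural 4 (log2 fold change -0.44, adjusted p = 0.0137, 0.0427 without peritoneal 2 and 5). For Dhrs3 the peritoneal libraries stood above the pleural ones and also above the subcutaneous mean of 14.6 ± 3.52 TPM. Of 11 matrix metalloproteinases and inhibitors, 2 fell and none rose, with a median of 0.085 and 8 of the 11 above 0, and 1 fell without peritoneal 2 and 5. The count was 1 without pleural 3, 4 or 5 or peritoneal 2 or 4. They were Mmp23 (-0.32) and Mmp11. Mmp11, stromelysin-3, had 23.5, 26.5, 22.2, 18.2 and 26.8 TPM in pleural cells and 40.9, 34.3, 37.2, 39.2 and 50.1 TPM in peritoneal cells (log2 fold change -0.76, adjusted p = 0.00323, 0.00923 without peritoneal 2 and 5). Collagens and matrix glycoproteins had 2 calls each in the opposite direction, where 4.45% of all genes tested rose. Of 23 collagens, Col6a1 (0.87) and Col6a2 (0.93), chains of collagen VI, rose and none fell (median 0.31), and neither passed without peritoneal 2 and 5. Single libraries left out gave 0 to 6 collagens higher: 1 without pleural 2, 0 without pleural 3 or 5 or peritoneal 2 or 5, 5 without peritoneal 1, 6 without peritoneal 4. Of 23 matrix glycoproteins and proteoglycans, Ccn2 and Thbs1, thrombospondin 1 (1.20), rose and none fell (median 0.24), and Ccn2 alone passed without peritoneal 2 and 5. That count of 2 was 1 without pleural 3, 4 or 5 or peritoneal 2 or 5.

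Genes by which tumour cells are seen by immune cells gave few calls. Of 12 immune checkpoint ligands and receptors, 2 rose and none fell (median 0.20), and 1 rose without peritoneal 2 and 5. Pvr, the ligand CD155 of TIGIT and of DNAM-1, had 88.8, 99, 113, 135 and 105 TPM in pleural cells and 55.4, 43.3, 72.4, 61.8 and 45.5 TPM in peritoneal cells (log2 fold change 0.96, SE 0.17, adjusted p = 0.0062, 0.0393 without peritoneal 2 and 5). Tnfsf9, the ligand of the co-stimulator 4-1BB, had 34.2, 32.5, 26.5, 26.7 and 40.6 TPM in pleural cells and 20.8, 22.9, 23.4, 24.5 and 23.8 TPM in peritoneal cells (log2 fold change 0.44, adjusted p = 0.0209, 0.0599 without peritoneal 2 and 5). Neither overlapped. Cd274, which encodes PD-L1, had 14.7, 1.77, 3.67, 5.89 and 2.3 TPM in pleural cells and 6.84, 1.47, 5.43, 2.35 and 4.15 TPM in peritoneal cells (log2 fold change 0.22, adjusted p = 0.764), with pleural 1 far above the others and a fold change of either sign depending on the libraries included. No member was called by limma among 24 type I interferon response genes, 21 interferon gamma response genes, 15 MHC class I and 6 MHC class II presentation genes, 37 proteasome subunits or 21 lysosome and autophagy genes. At an unadjusted p below 0.05 these lists held 0, 1, 0, 0, 1 and 6 genes, against 3572 of the 12357 genes tested. Interferon gamma response genes varied within both groups, with mean log2 levels of 5.89, 3.83, 4.01, 5.11 and 3.66 in pleural 1 to 5 and 5.17, 3.27, 5.01, 4.05 and 4.51 in peritoneal 1 to 5.

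The whole tumours, normalized separately and made of cancer and host cells together, carried many of the signs of these differences. Several list medians were smaller in tumours than in sorted cells. They were 0.17 against 1.06 for immediate early factors, 0.11 against 1.24 for the mitochondrial genome and 0.065 against 0.89 for heat shock chaperones. Cholesterol genes had 0.17 against 0.64, and mitosis genes -0.080 against -0.46. Other lists, among them glycolysis (0.25 against 0.17) and type I interferon response (0.31 against 0.081), had the larger median in tumours. Tumours and sorted cells may come from the same mice, since the mouse numbers in the labels coincide, so the tumours are not independent support. Of the 550 genes higher in pleural cells, 542 were listed in whole tumours and 453 of these (83.6%) had a positive pleural minus peritoneal difference, against 50.2% of all 12056 shared genes. Of the 681 lower genes, 663 were listed and 536 (80.8%) had a negative difference, against 49.8% of all. The libraries of 6 pleural and 5 peritoneal tumours did not overlap for 17 of the 542, higher in pleural, and for 32 of the 663, lower in pleural, against 0.456% and 0.672% of all shared genes. Krt8 averaged 5.31 ± 5.44 TPM in pleural tumours and 28 ± 10.7 TPM in peritoneal tumours (difference -2.53 on log2(TPM + 1), against -1.87 in sorted cells). Ccn2 averaged 137 ± 27.7 TPM in pleural tumours and 73.1 ± 7.14 TPM in peritoneal tumours (difference 0.88), and neither gene overlapped. Per1 (0.78), Bcl6 (0.57), Plk2 (0.36) and Dusp8 (0.24) were higher in every pleural tumour than in every peritoneal one, and Avil (-0.66), Sncg (-0.75), Gpnmb (-0.54) and H1f0 (-0.38) were lower. Cxcl2, in contrast, averaged 0.866 ± 0.507 TPM in pleural tumours and 0.842 ± 0.445 TPM in peritoneal tumours, and Cth 7.21 ± 1.66 TPM in pleural tumours and 7.1 ± 1.42 TPM in peritoneal tumours. The tumour means of Cxcl2 were far below its levels in sorted cells of either site, given above, and the cause was not tested.

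Set beside the subcutaneous mean, the peritoneal mean was more often the further one, with all libraries included. Subcutaneous 1 and 2 had 708 and 574 TPM of summed leukocyte markers, against 129 to 183 TPM in pleural and 138 to 181 TPM in peritoneal libraries. Their Ptprc levels were 12.9 and 7.48 TPM. Without these 2 libraries, limma called 1170 genes. The shares that follow were not recomputed without them or without peritoneal 2 and 5. The pleural mean was nearer to the subcutaneous mean than the peritoneal mean was for 85.8% of the genes higher in pleural cells and for 80.6% of the lower ones, against 66.2% of all genes tested. Peritoneal 2 or 5 was the lowest peritoneal library for 86.5% of the higher genes, against 70.5% of all genes, and the highest for 64% of the lower genes, against 25.4% of all. The called genes also differed in transcript length and GC content. Length enters TPM through its scaling, so it is not independent of the values compared, and the cause was not tested. In GENCODE M21 the median length of the longest transcript was 3786 bases for the higher genes and 2249 bases for the lower genes, against 3109 bases for all genes tested. The median GC content was 48.3% for the higher genes and 53% for the lower genes, against 49.4% for all.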

How the data were processed

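RNA was sequenced as 50 bp single-end reads, per the labels' protocols. TPM values were deposited by the authors, with kallisto and GRCm39 named in the submitters' processing notes and no version given in the sources used here. Reads shared with near-identical copies or overlapping genes are of uncertain origin, and the depth in reads is unknown.

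The sorted-cell table was tested on log2(TPM + 1) for each gene that reached 1 TPM in 5 or more libraries, with limma 3.58.1 (trend, R 4.3.3) over all 15 sorted libraries and Benjamini-Hochberg adjustment at 0.05. The fit was also run on simulated data in which genes were independent and no library stood apart. Its outcome is not given here, and it does not address the dependence on single libraries. Single values used exact permutation tests. No 2 libraries held identical values. Alternatives were other pseudocounts (0.1), filters, scalings, weights, sample sets, a replicate block and each library left out.

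Genes, 59 lists and tests were chosen with earlier results of these data known. Named genes were the 12 largest called changes per direction without overlap whose higher group averaged 5 TPM or more, up to 3 called members per list and direction by adjusted p, the first 2 of each list, and 8 fixed genes. Further members, among them Areg, Lif and mt-Co1, were named after their values were seen. Some genes that the rule named are not reported here. Promoters were from a RefSeq table of another build (GRCm38.p6) that is not complete: of the sets considered, only mitosis had windows for at least 80% of its genes, so a motif share is given for that set alone. Transcript length and GC content were from GENCODE M21.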

Additional observations from a re-analysis of the deposited data

Results flagged for a closer look

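Of 240 groups of 5 libraries checked, 20 had a library far from the other 4 (Dixon's test at 95%, critical value 0.71). The groups were each named gene at each site, plus the mitochondrial share and the summed leukocyte markers at each site. Chance flags about 1 in 20 groups. Most of the flags fell on 1 library: peritoneal 3 was the highest peritoneal library by a wide gap for genes that were higher in pleural cells. Its values were 7.74 TPM for Nr4a3, 68.3 TPM for Csrnp1, 29.7 TPM for Dusp5, 16.5 TPM for Dusp8, 22.7 TPM for Sgk1, 81.7 TPM for Tnfaip3 and 77.6 TPM for Cxcl2. The nearest other peritoneal values were 1.52, 21.9, 16.0, 4.98, 9.91, 22.4 and 31.4 TPM in the same order. The same library was also the highest peritoneal one by a wide gap at 5.52 TPM for Il11, 34.8 TPM for Lif, 168 TPM for Ptgs2, 12.7 TPM for Smad7, 4.96 TPM for F3 and 57.4 TPM for Bhlhe40. For Plk1 it was the lowest peritoneal library, at 42.6 TPM, with the nearest at 51.8 TPM.

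Pleural 3 was the highest pleural library for Il33, at 55.5 TPM, and for Bhlhe40, at 96.3 TPM. The remaining flags were pleural 4 for Hbegf (137 TPM), pleural 2 for Ndufs7 (109.6 TPM), peritoneal 5 as the lowest for Mdm2 (27.5 TPM) and peritoneal 1 for Ccnb1 (49.8 TPM).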

How the results depend on the processing

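The count of called genes (1231: 550 higher, 681 lower) was 1927 with 1063 higher under median-ratio scaling and 2229 (965 higher, 1264 lower) under quantile normalization. It was 691 (297 higher, 394 lower) with pleural and peritoneal libraries alone, 187 (92 and 95) at an adjusted p below 0.01, 482 (137 and 345) without peritoneal 2 and 5, and 410 (121 and 289) with both restrictions. Sample weights gave 1261 lower genes. Leaving out each library in turn gave 525 to 1421 called genes, 227 to 791 higher and 274 to 689 lower. Other settings stayed within 1.5 times. The cause of these shifts was not tested.

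Replicate numbers did not pair the libraries: deviations of same-numbered libraries correlated at -0.082 to 0.076. With a replicate block 1160 genes were called (567 higher, 593 lower), and the mitochondrial share difference of 2.10 points had a sign-flip p of 0.0625, the smallest that 5 pairs allow. The leukocyte markers, summed TPM, did not pass in any setting and differed by -3.85 to 9.65 TPM when 1 library was left out.

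Signs turned for genes that were not called: Cd274 (-0.14 with sample weights, -0.031 without peritoneal 2 and 5 in either sample set, -0.16 to 0.46 without single libraries), Msln (-0.010 under quantile normalization, -0.082 to 0.16 without single libraries), Fos (-0.24 to 0.040 without single libraries), mt-Co1 (-0.029 under quantile normalization) and Rrm2b (-0.35 with sample weights, -0.50 without peritoneal 2 and 5 in either sample set, -0.16 to 0.35 without single libraries).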
